A study of Mus musculus with 2 samples.

Results

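Steroid and thyroid hormone receptors, of which the glucocorticoid and thyroid hormone receptors are known to induce Klf9, together with genes that respond to glucocorticoids, were examined in cultured mouse primordial germ cells (PGCs, the embryonic precursors of eggs and sperm) with and without forced expression of Klf9. The set held 9 genes, chosen by symbol among the 23320 gene symbols present in both deposited tables: the receptors Nr3c1, Nr3c2, Thra, Thrb, Pgr and Esr1, and the responsive genes Fkbp5, Tsc22d3 and Sgk1. All 9 were above 0 in both libraries, and each had a single row in each table. PGCs were sorted by GFP from E13.5 embryos of MCH females mated with Oct4-deltaPE-GFP males, with genital ridges of male and female embryos dissected. They received a control lentivirus or a lentivirus with the Klf9 coding region at an MOI of 5, and were cultured for 1 day before RNA was taken. There was 1 control library and 1 Klf9-OE (over-expression) library, so no difference below has a replicate check or a p-value. The labels place both cultures in medium with bFGF, the paper in medium without it. The paper lists insulin among the additions to its medium and names no steroid or thyroid hormone there, while the makeup of the commercial supplements and the control vector of these libraries are not given in the sources used here.

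Nuclear receptors of this kind are transcription factors that a hormone switches on. The glucocorticoid receptor Nr3c1, the mineralocorticoid receptor Nr3c2 and the progesterone receptor Pgr read closely related DNA elements, whereas the thyroid hormone receptors Thra and Thrb and the estrogen receptor Esr1 read elements built on another 6-base site. Klf9 encodes a zinc finger factor that binds GC-rich boxes, and its gene is known to respond to glucocorticoids and thyroid hormone, with KLF9 acting as a partner of the progesterone receptor in the uterus.

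The values are FPKM, fragments per kilobase of exon scaled to the mapped reads, as Cufflinks estimated them with a 95% interval for each library. The interval covers the error of estimation within a library and not the difference between cultures. Klf9 itself was listed at an FPKM of 2.27 (interval 1.97 to 2.57) in control and 80.8 (77.0 to 84.5) in Klf9-OE PGCs, with vector and endogenous reads not separated. The tables hold no read totals. From the interval widths, 1.22 reads were counted in Klf9-OE for each control read. This is a median over 4891 genes annotated in both tables with 1 transcript start (quartiles 1.205 and 1.232). Read numbers implied by the intervals were even for 36.4% of 2132 genes with 1 to 9 reads in control and for 89.0% of 1767 such genes in Klf9-OE, so the comparison of libraries for each of the 9 genes was repeated with the Klf9-OE interval widened by the square root of 2, as if its reads had been counted in pairs. All other comparisons of intervals use the deposited bounds. Germ cell markers were abundant in both libraries, with Ddx4, a germ cell RNA helicase, at FPKM of 299.9 and 292 and Dazl, a germ cell RNA-binding protein, at 351 and 378. Their levels were not equal between the libraries. Of 12 germ cell markers, 10 were lower in Klf9-OE with intervals apart, against 14.4% of all genes with an interval in both libraries. Dazl was the 1 higher gene with intervals apart, and Pou5f1, the highest in control, was listed at 387 and 277.

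In these PGCs the glucocorticoid receptor was the most abundant of the receptors of the set, and the 3 responsive genes were more abundant than any of these receptors. In control, the FPKM ran from Tsc22d3 (77.7) through Sgk1 (44.3), Fkbp5 (32.7), Nr3c1 (13.1), Thra (5.56), Nr3c2 (0.973), Esr1 (0.640) and Thrb (0.237) to Pgr (0.152). In Klf9-OE the order was the same, from 85.5 for Tsc22d3 to 0.107 for Pgr. Neighbours in the order had intervals that did not overlap, except Thrb and Pgr in control, and Sgk1 with Fkbp5 and Esr1 with Thrb in Klf9-OE. Among the 18742 genes above 0 in at least 1 library, the control level of Tsc22d3 stood at percentile 94.0, that of Nr3c1 at 68.8 and that of Pgr at 18.3. Within the receptor pairs, the level of Nr3c1 was 13.48 times that of Nr3c2 in control and 14.9 times in Klf9-OE, and the level of Thra was 23.5 and 10.04 times that of Thrb.

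**Figure D1:**
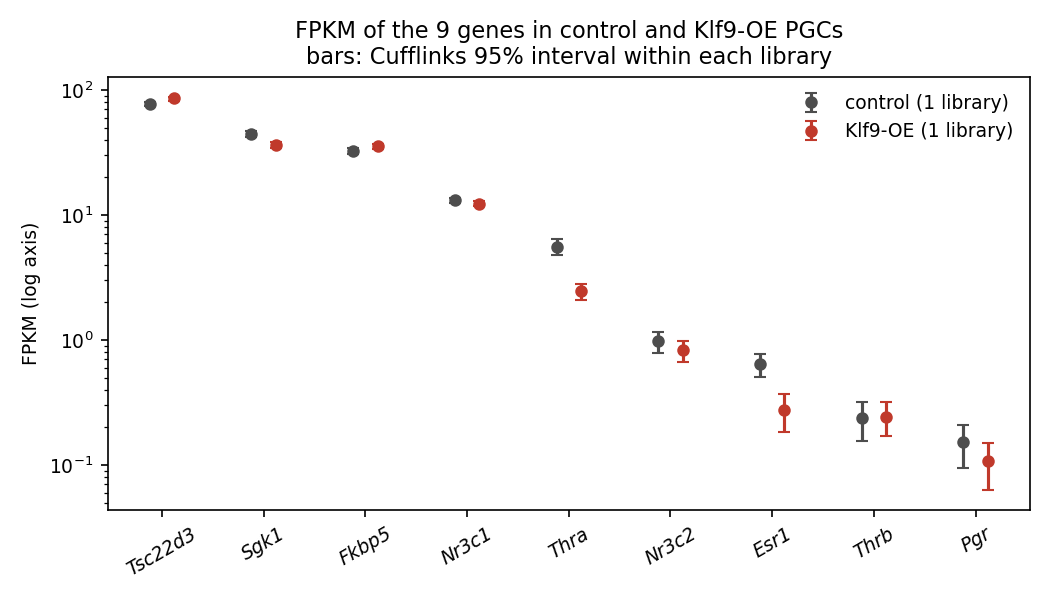
FPKM (log axis) of the 9 genes in the control library (grey) and the Klf9-OE library (red), with bars for the Cufflinks 95% interval. The points of Thra and Esr1 lie apart, with 5.56 and 2.45 for Thra and 0.640 and 0.276 for Esr1, while those of the other genes lie closer together.

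Between the libraries, 2 of the 9 genes differed at least 2-fold, and both were lower in Klf9-OE. These were the receptors Thra and Esr1. Over all genes above 0, 19.3% differed at least 2-fold in either direction and 9.43% were at least 2-fold lower. None of the 3 responsive genes differed 2-fold. Of the 9 ratios of Klf9-OE to control FPKM, 6 were below 1 and 3 above it. The median log2 fold change, calculated on log2(FPKM + 0.1), was -0.21 for the 9 genes and -0.015 for all genes. Intervals did not overlap for 4 of the 9 genes, 3 of them lower in Klf9-OE, against 25.6% of the 18626 genes with an interval in both libraries, and 14.4% when only lower genes were counted. The same number, 4, resulted with the widened Klf9-OE intervals.

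**Figure D2:**
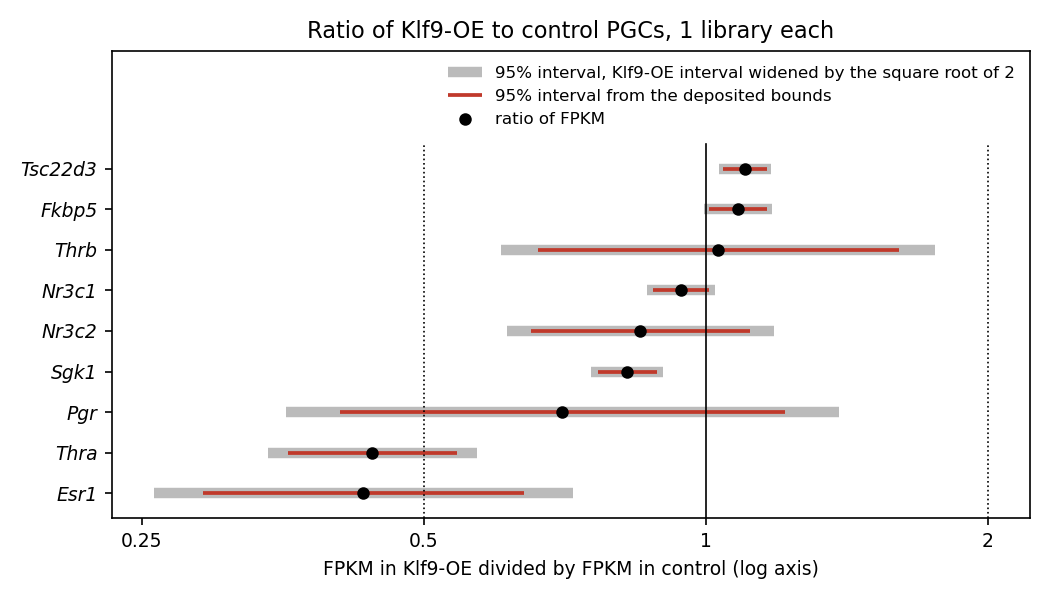
Ratio of Klf9-OE to control FPKM (log axis) for the 9 genes, with the 95% interval from the deposited bounds (red) and with the Klf9-OE interval widened (grey); dotted lines mark 2-fold. The ratios of Esr1 (0.431) and Thra (0.441) lie below 0.5, and the other ratios lie between 0.703 and 1.10.

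Nr3c1 (chromosome 18, 39410545 to 39519421 on the reverse strand in the GENCODE annotation of mm10) binds cortisol and corticosterone. Its FPKM was 13.1 (12.4 to 13.8) in control and 12.3 (11.7 to 12.9) in Klf9-OE. The libraries were close and the intervals overlapped, with a ratio of 0.9404 (0.878 to 1.01). The mineralocorticoid receptor Nr3c2 (chromosome 8, 76899442 to 77245012) also binds corticosterone. It was listed at 0.973 (0.781 to 1.16) in control and 0.828 (0.668 to 0.987) in Klf9-OE. The ratio of 0.851 had an interval of 0.650 to 1.11, which includes 1.

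The progesterone receptor Pgr (chromosome 9, 8899833 to 8968611) had the lowest level of the set. Its FPKM was 0.152 (0.0946 to 0.210) in control and 0.107 (0.0629 to 0.151) in Klf9-OE, behind which the intervals imply 28.0 and 23.7 reads. With so few reads the ratio of 0.703 had a wide interval of 0.406 to 1.21, which includes 1, and no difference was detected.

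The estrogen receptor Esr1 (chromosome 10, 4611593 to 5005614) had an FPKM of 0.640 (0.502 to 0.778) in control. In Klf9-OE it was 0.276 (0.182 to 0.369). The intervals did not overlap, also after widening (0.143 to 0.408), and the Klf9-OE value was lower by 56.9%. The ratio of 0.431 had an interval of 0.291 to 0.639, so the deposited bounds allow a difference smaller than 2-fold. The intervals imply 86.6 reads in control and 34.7 in Klf9-OE. Among genes with a mean FPKM of 0.1 to 1, the share with a Klf9-OE value of at most 0.5 times control was 11.1%. The other estrogen receptor, Esr2, differed in the same direction, from 1.51 (1.21 to 1.81) to 0.749 (0.575 to 0.923), a ratio of 0.496 with intervals that did not overlap, from a row assembled in control and annotated in Klf9-OE.

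Thra (chromosome 11, 98740638 to 98769006 on the forward strand) encodes thyroid hormone receptor alpha. Its FPKM was 5.56 (4.75 to 6.37) in control and 2.45 (2.07 to 2.83) in Klf9-OE. The control value was 2.27 times the Klf9-OE value, and the intervals did not overlap, also after widening (1.91 to 2.99). The ratio of 0.441 had an interval of 0.358 to 0.543, so here too the deposited bounds allow a difference smaller than 2-fold. Among genes with a mean FPKM of 1 to 10, 5.18% were at least 2-fold lower. Thrb (chromosome 14, 17660261 to 18038090), the other thyroid hormone receptor, was listed at 0.237 (0.156 to 0.317) and 0.244 (0.171 to 0.317). These values lay close together, but the ratio of 1.03 had a wide interval of 0.661 to 1.61.

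The rows of Thra did not cover the same stretch of the genome in both tables. In control the row was a transcript model that Cufflinks assembled from the reads, from 98741869 to 98768195. In Klf9-OE it was the annotated locus, from 98741873 to 98765111. The control row therefore reached 3084 bases further and overlapped by 264 bases the row of Nr1d1, a gene of the circadian clock that lies on the opposite strand from 98767932 to 98775333. The library kit does not mark strand, so reads in the overlap cannot be assigned to either gene. Nr1d1 had an FPKM of 8.69 (7.88 to 9.51) in control and 7.46 (6.87 to 8.05) in Klf9-OE. In the annotation, too, Thra and Nr1d1 overlap, by 1075 bases.

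**Figure D3:**
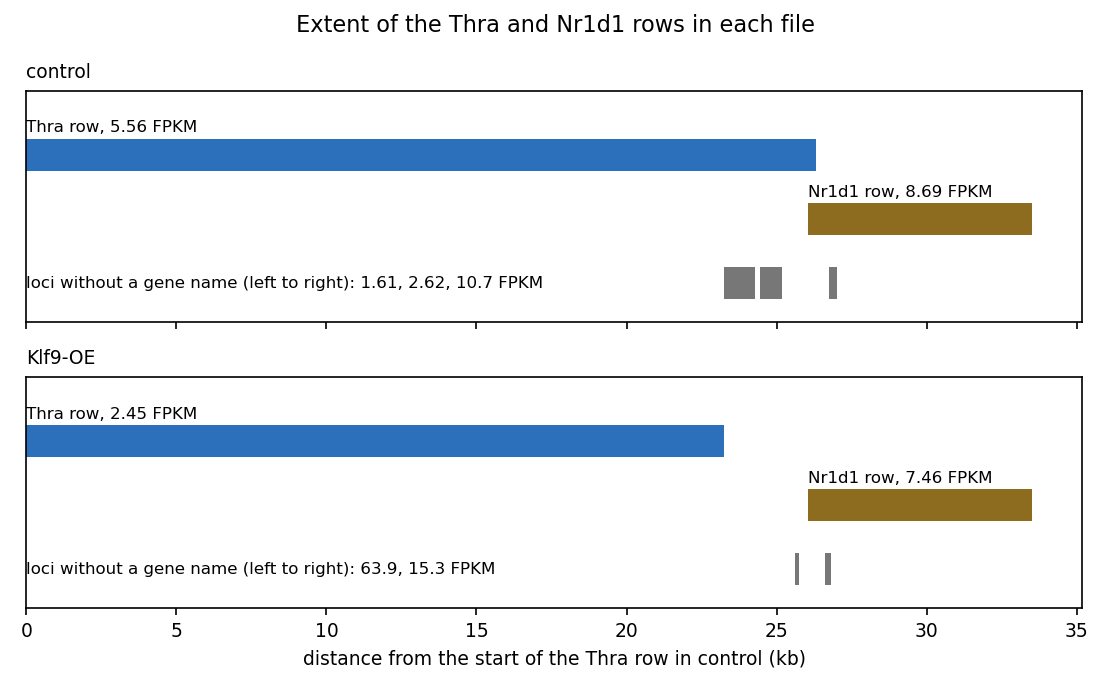
Extent of the rows of Thra, Nr1d1 and loci without a gene name in the control table (top) and the Klf9-OE table (bottom), as distance in kb from the start of the control Thra row. The Thra row (5.56 FPKM) overlaps that of Nr1d1 in control and stops short of it in Klf9-OE (2.45 FPKM), where a short unnamed locus of 63.9 FPKM lies between them.

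Over all genes with an FPKM of at least 1 in at least 1 library, 7.72% differed at least 2-fold. The share depended on the kind of row. Of 2067 genes with an assembled row in control and an annotated row in Klf9-OE, as for Thra and Sgk1, 2-fold lower genes made up 6.63% and 2-fold higher genes 1.55%. Of 1190 genes with the reverse arrangement, 1.85% were lower and 9.58% higher. Where both rows were annotated (3311 genes), the shares were 4.20% and 4.44%. Esr1 had the reverse arrangement but lay below this level. Of 317 such genes with a mean FPKM of 0.1 to 1, Esr1 among them, 4.73% were lower and 29.0% higher. Lower genes were the larger share for the kind of row of Thra, and the smaller share for that of Esr1 at its level. Rows were assembled from the reads of each library, so the kind of row may itself depend on the level. The shares therefore describe kinds of row and not the source of either difference. Nr3c2, Thrb and Pgr were annotated in both tables, and none of these 3 differed 2-fold. The part of the row models in the Thra and Esr1 differences was not tested.

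**Figure D4:**
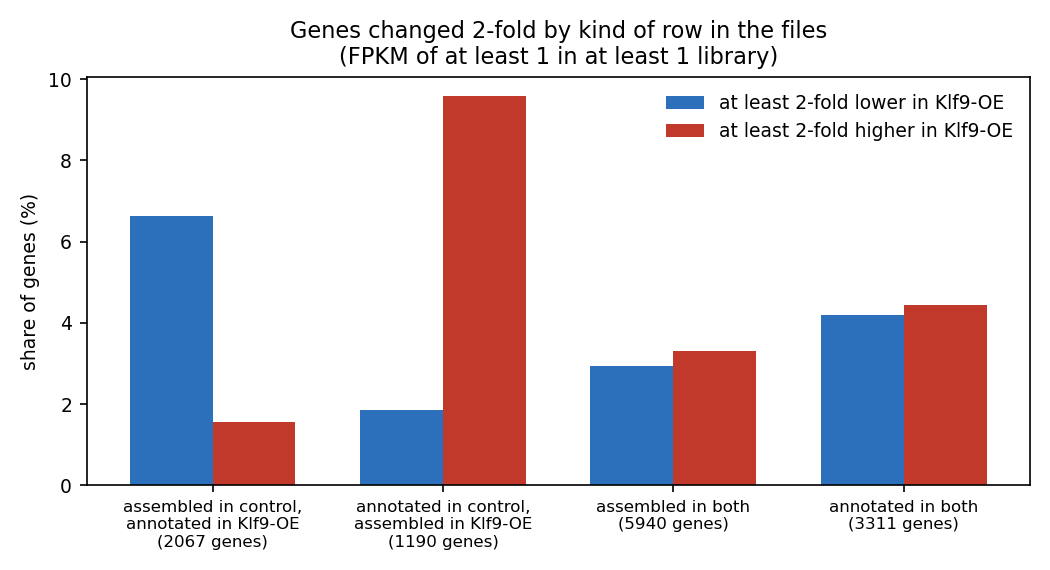
Share of genes (%) at least 2-fold lower (blue) or higher (red) in Klf9-OE by the kind of row in the tables, for genes with an FPKM of at least 1 in at least 1 library. Lower genes outnumber higher genes where the row was assembled only in control (6.63% and 1.55%), and the reverse holds where it was assembled only in Klf9-OE (1.85% and 9.58%).

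A second measure is the number of reads implied by the intervals, divided by the depth ratio. For the genes annotated in both tables it gave nearly the ratio of the FPKM, with 0.855 against 0.851 for Nr3c2, 1.04 against 1.03 for Thrb and 0.693 against 0.703 for Pgr. The depth ratio was set on genes annotated in both tables with 1 start, so the closeness for Nr3c2 and Pgr was built in. The measure was also close for Sgk1 (0.829 against 0.824), whose rows were of the same kinds as those of Thra, and for Fkbp5 (1.077 against 1.082), assembled in both. For Nr3c1 it was 1.01 against 0.9404 and for Tsc22d3 1.02 against 1.10. For Thra it was 0.721 against 0.441, and for Esr1 it was 0.328 against 0.431. Both receptors were below 1 on either measure, but the size of the Thra difference was not the same. Implied reads are calculated from the same FPKM and its upper bound, so the shared direction is not independent. For Klf9, with both rows assembled, implied reads gave 6.51 against 35.6, so they did not follow the FPKM for every assembled row.

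Fkbp5 (chromosome 17, 28399094 to 28517527 on the reverse strand) encodes a co-chaperone of Hsp90 that lowers the hormone affinity of the glucocorticoid receptor and is itself induced by it. Its FPKM was 32.7 (31.0 to 34.5) in control and 35.4 (33.8 to 37.1) in Klf9-OE. The intervals overlapped, and the ratio of 1.08 (1.01 to 1.16) reached 1 when the Klf9-OE interval was widened (0.995 to 1.18). Tsc22d3 (chromosome X, 140539528 to 140600659 on the reverse strand), also called Gilz, encodes a leucine zipper protein known for its anti-inflammatory role downstream of glucocorticoids. It was listed at 77.7 (74.5 to 80.9) and 85.5 (82.4 to 88.7), which was higher in Klf9-OE by 10.1%, with intervals that did not overlap.

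Sgk1 (chromosome 10, 21882184 to 21999903 on the forward strand) encodes a serine/threonine kinase induced by glucocorticoids and mineralocorticoids that regulates ion channels. Its FPKM was 44.3 (42.0 to 46.7) in control and 36.5 (34.6 to 38.5) in Klf9-OE. In contrast to Fkbp5 and Tsc22d3 it was lower in Klf9-OE, with a ratio of 0.824 (0.766 to 0.886) and intervals that did not overlap. The 3 responsive genes thus did not share a direction, and the largest difference among them was that of Sgk1, 1.21-fold. At their level (mean FPKM of 10 to 100), 1.54% of genes were at least 2-fold lower. Beside these differences, the level of their receptor Nr3c1 had overlapping intervals.

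Promoters from RefSeq (GRCm38.p6) ran from 250 bases before to 50 after each transcript start. For Nr3c1 and Thra none was found, and the other 7 of the 9 genes had 16 promoters in all. They were searched on both strands for the GC box GGGCGG, which factors of the Sp and KLF type bind, and for CACCC, another site of KLF factors. Of 32851 promoters of this length, 35.7% held at least 1 GC box and 57.5% at least 1 CACCC. The 2 promoters of the set with the most GC boxes, 4 each, are those of Fkbp5 and of 1 of the 6 starts of Sgk1; 5.49% of all promoters held as many. Neither promoter of Esr1 held a GC box, and the first held 1 CACCC. The number of GC boxes did not separate the genes by role, since the 3 promoters of Tsc22d3, the most abundant responsive gene, held 1, 0 and 1, and those of Nr3c2 and the first start of Thrb held 3 each. The promoters with the most GC boxes are shown beside the first promoter of Esr1, which has none. Capitals mark GC boxes in the Fkbp5 (chr17:28486100-28486399, reverse strand) and Sgk1 (chr10:21994416-21994715) promoters and the CACCC site in that of Esr1 (chr10:4611739-4612038).

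Fkbp5: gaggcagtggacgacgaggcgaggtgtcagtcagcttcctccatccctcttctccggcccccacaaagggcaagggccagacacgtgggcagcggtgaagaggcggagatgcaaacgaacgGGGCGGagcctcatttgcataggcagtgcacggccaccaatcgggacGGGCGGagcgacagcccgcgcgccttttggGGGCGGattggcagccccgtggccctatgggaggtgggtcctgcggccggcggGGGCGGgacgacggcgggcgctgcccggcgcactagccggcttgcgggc
Sgk1, GC-rich start: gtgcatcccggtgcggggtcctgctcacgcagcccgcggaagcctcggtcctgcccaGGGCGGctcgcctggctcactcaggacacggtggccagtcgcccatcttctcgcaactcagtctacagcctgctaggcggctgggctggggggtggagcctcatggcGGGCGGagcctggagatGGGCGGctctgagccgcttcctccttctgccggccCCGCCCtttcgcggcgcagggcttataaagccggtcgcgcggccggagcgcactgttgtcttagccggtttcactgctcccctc
Esr1, first start: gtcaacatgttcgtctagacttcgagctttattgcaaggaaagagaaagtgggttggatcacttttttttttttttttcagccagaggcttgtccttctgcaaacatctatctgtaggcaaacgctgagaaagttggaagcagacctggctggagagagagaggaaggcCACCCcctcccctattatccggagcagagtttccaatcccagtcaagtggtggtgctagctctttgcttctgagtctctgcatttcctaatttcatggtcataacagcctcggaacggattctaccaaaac

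The 3 receptors Nr3c1, Nr3c2 and Pgr read the site AGAACA and its reverse complement 3 bases apart, written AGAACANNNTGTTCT. After reading the promoters, this whole element was searched for in all of them, and 3 of the 32851 promoters held an exact copy (0.00913%). One of these was at another start of Sgk1 (chr10:21993640-21993939, forward strand), where the element begins 189 bases before the transcript start. It is printed with the element in capitals because it is the only exact copy in the 16 promoters. The tables give a single value for Sgk1 over its 6 starts, so the use of this start could not be read.

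Sgk1, start with the element: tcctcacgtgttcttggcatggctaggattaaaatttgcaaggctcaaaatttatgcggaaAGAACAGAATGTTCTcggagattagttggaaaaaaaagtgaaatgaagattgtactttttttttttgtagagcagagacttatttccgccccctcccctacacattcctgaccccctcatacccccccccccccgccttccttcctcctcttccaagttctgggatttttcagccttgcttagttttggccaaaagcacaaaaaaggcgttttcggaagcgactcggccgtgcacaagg

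The 6-base site AGAACA alone, which the whole element contains on each strand, was in 5 of the 16 promoters, 3 of them of Sgk1, and in 19.0% of all promoters. AGGTCA, the site of thyroid and estrogen receptors, was in 3 of the 16 and in 16.3% of all. The GC box was in 8 of the 16 and CACCC in 6. A match describes letters in these windows and not binding.

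Other genes of these pathways were read from lists that hold no chance test. Over the 18626 genes with an interval in both libraries, intervals were apart for 25.6%, and for 14.4% with only lower genes counted. In numbers, these were 2086 higher and 2686 lower genes. Among 13 further receptors, all above 0, Esr2 was at least 2-fold lower and Gper1, listed at 0 in control and 0.0258 (0 to 0.0624) in Klf9-OE, counted as higher. Intervals were apart for 2 higher and 3 lower genes. The orphan receptor Esrra, a regulator of mitochondrial genes, was listed at 10.9 (9.93 to 11.9) and 7.08 (6.37 to 7.79). Nr1d2, a repressor of the circadian clock, had the highest control level, 53.2 (50.7 to 55.8), and 73.7 (71.0 to 76.3) in Klf9-OE. Pgrmc2, a membrane protein that binds heme and was named for progesterone, was listed at 21.0 and 20.3 with intervals that overlapped.

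The chaperone complex that holds steroid receptors ready for hormone was among the most abundant of the lists and differed little. Of 15 genes listed, 13 were found, none differed 2-fold, and the median log2 fold change was -0.075. Intervals were apart for 2 higher and 4 lower of the 13 genes. Hspa8, the constitutive Hsp70, had FPKM of 1919 (1839 to 1999) and 2120 (2108 to 2131), and the Hsp90 gene Hsp90aa1 had 1455 and 1507, with overlapping intervals. Ppid, a cyclophilin co-chaperone, was listed at 83.5 (79.0 to 88.0) and 99.2 (94.2 to 104). St13 was listed at 151 (145 to 158) and 134 (128 to 139), and Stip1, which links Hsp70 to Hsp90, at 338 (333 to 343) and 304 (291 to 317).

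Of 15 receptor coactivators and corepressors, 14 were found and 1 differed at least 2-fold, with a median of -0.014. That gene was Gps2, a subunit of the corepressor complex of Ncor1 and Hdac3, listed at 41.1 (38.3 to 43.9) in control and at 0 with bounds of 0 in Klf9-OE. Cufflinks gave this row the status OK, but an exact 0 may still be a failed estimate in these tables, and no fold is given. Intervals were apart for 2 higher and 4 lower genes of this list, Gps2 among the lower. The corepressor Ncor1 was listed at 16.2 (15.5 to 17.0) and 19.3 (18.5 to 20.1), Pnrc1 at 21.6 (20.2 to 22.9) and 18.7 (17.6 to 19.9), and the deacetylase Hdac3 at 33.9 and 34.6 with overlapping intervals.

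Glucocorticoid-responsive genes other than the set did not share a direction. Of 27 listed, 25 were above 0, with 1 past 2-fold upward and 2 downward, intervals apart for 8 higher and 5 lower genes, and a median log2 fold change of 0.015. The gene past 2-fold upward was Klf9, carried by the vector and also among the 8 higher genes. Ddit4, an inhibitor of mTORC1 signaling, had the highest control level of the list and was lower in Klf9-OE, at 55.0 (52.6 to 57.3) and 26.6 (24.8 to 28.5), a ratio of 0.485. Sult1a1, a sulfotransferase, was listed at 1.06 (0.589 to 1.53) in control and at 0 in Klf9-OE. It counted as lower, but as for Gps2 its exact 0 can be a failed estimate. The metallothionein gene Mt1 was listed at 23.0 (19.8 to 26.2) and 30.3 (27.0 to 33.6).

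Enzymes and transporters of steroid and thyroid hormones were low. Of 19 listed, 18 were above 0 and 6 had an FPKM of at least 1 in at least 1 library. Of the 18, 6 had a ratio of 2 or more and 4 a ratio of 0.5 or less, most of them near 0, against 19.3% of all genes in either direction. With an FPKM of at least 1, 1 gene counted as 2-fold higher (Star, at an exact 0 in control) and 0 as lower. Over the 18, intervals were apart for 2 higher genes and 1 lower gene. Star, which brings cholesterol into mitochondria for steroid synthesis, was listed at 0 in control and at 2.39 (2.12 to 2.67) in Klf9-OE. As for Gps2, this exact 0 can be a failed estimate, and no fold is given. Srd5a1, a steroid 5-alpha reductase, and Cyp11a1, which makes pregnenolone, had overlapping intervals, with 5.02 and 5.39 for Srd5a1 and 3.27 and 3.60 for Cyp11a1. Slc16a10, an aromatic amino acid and thyroid hormone transporter, also had overlapping intervals, at 1.898 and 2.42.

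Among 18 genes known to respond to thyroid hormone, estrogen or progesterone in other tissues, 16 were above 0, with 2 past 2-fold in each direction and a median of 0.35. Intervals were apart for 6 higher genes and 1 lower gene. The lower gene was Pdzk1, a scaffold protein known as an estrogen target, at 15.1 (14.03 to 16.2) and 7.10 (6.48 to 7.73). Igfbp4, which binds insulin-like growth factors, was listed at 5.27 (4.62 to 5.91) and 7.90 (7.18 to 8.61), and Bcl3, a coactivator of NF-kappaB, at 12.9 (11.7 to 14.1) and 19.2 (17.6 to 20.8). Me1, malic enzyme, was listed at 17.3 (16.1 to 18.4) and 20.2 (18.9 to 21.4), and Xbp1, a factor of the unfolded protein response, at 17.1 (15.8 to 18.3) and 21.6 (20.1 to 23.0).

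Genes around the kinase Sgk1 showed no 2-fold difference among 16 measured, with a median of -0.20 and intervals apart for 2 higher and 6 lower genes. Mtor, the kinase of the complex that activates Sgk1, was listed at 94.1 (90.6 to 97.6) and 61.3 (58.6 to 64.0). Nedd4l, a ubiquitin ligase that Sgk1 phosphorylates, was listed at 6.97 (6.53 to 7.41) and 4.31 (4.03 to 4.596), and Ndrg1, another substrate, at 2.79 (2.39 to 3.18) and 1.88 (1.59 to 2.17). Wnk1, a kinase of ion transport, had overlapping intervals at 68.6 and 70.0.

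**Figure D5:**
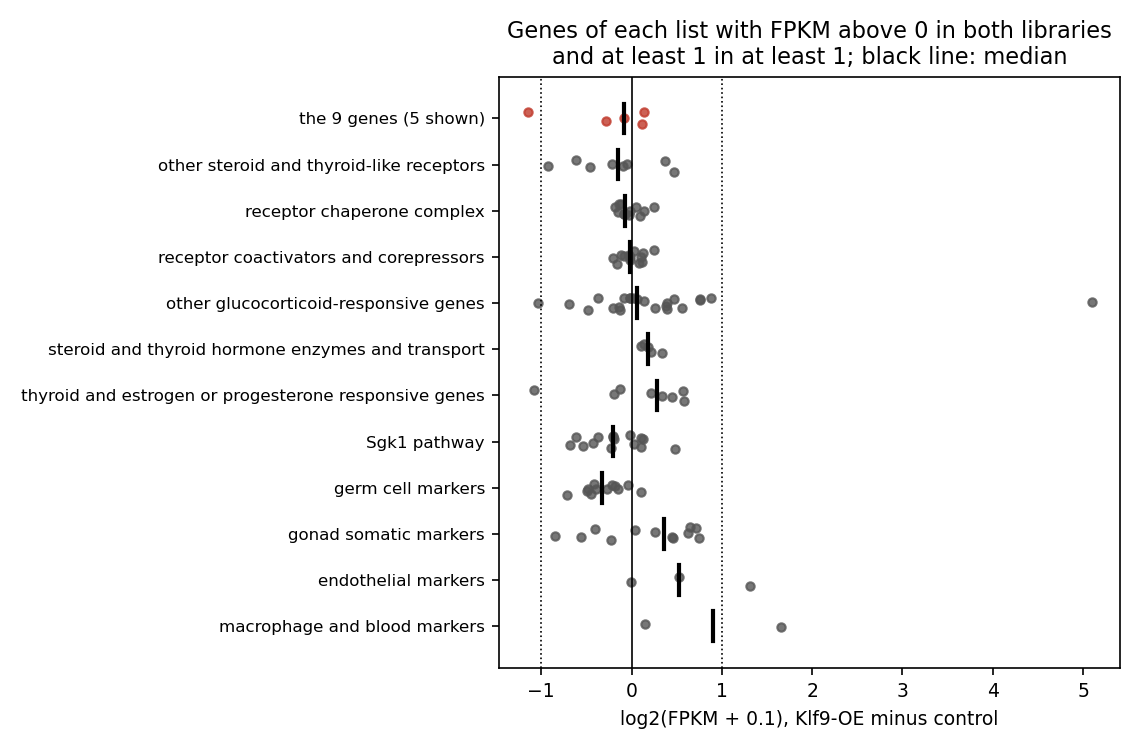
Difference in log2(FPKM + 0.1) between Klf9-OE and control for genes of each list with an FPKM above 0 in both libraries and at least 1 in at least 1; black lines are medians and dotted lines mark 2-fold. Of the 9 genes (red), 5 reach this level and Thra lies lowest at -1.15, while the medians run from -0.33 for germ cell markers to 0.90 for 2 macrophage and blood markers; over all 9 markers of that list, most of them below this level, the median is -0.62.

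Markers of cell types differed between the libraries as well. Of 12 germ cell markers, intervals were apart for 10 lower genes and 1 higher gene in Klf9-OE, against 14.4% lower over all genes. Their summed FPKM was 1879 in control and 1587 in Klf9-OE. Pou5f1 was the highest in control, at 387 (375 to 399) and 277 (267 to 287), and the largest differences were those of Dppa3, at 294 (279 to 309) and 179 (169 to 188), and Nanos3, at 24.6 (21.9 to 27.4) and 17.5 (15.5 to 19.5). Of 15 gonad somatic markers above 0, intervals were apart for 6 higher and 2 lower genes, and the sum was 41.8 and 52.1. Over all 18626 genes with an interval in both libraries, 2086 were higher and 2686 lower with intervals apart. Among them, Col1a1 was listed at 9.09 (8.55 to 9.63) and 12.5 (11.95 to 13.1), Inha at 6.29 and 6.45 with overlapping intervals, Sox9 at 2.04 (1.76 to 2.31) and 1.09 (0.906 to 1.27) and Lhx9 at 1.34 (1.02 to 1.66) and 2.32 (1.92 to 2.72).

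The sum of 8 endothelial markers was 21.9 and 34.5, most of it Pecam1. Intervals were apart for 3 higher genes and 1 lower gene, against 2086 higher and 2686 lower of all 18626 genes. The lower gene was Tek, named after its values were seen, at 0.735 (0.574 to 0.896) and 0.439 (0.327 to 0.550). Pecam1, which PGCs also express, was listed at 16.8 (15.8 to 17.9) and 24.2 (20.9 to 27.4), Cdh5 at 1.995 (1.66 to 2.33) and 5.09 (4.57 to 5.60), and Eng at 0 in control and 2.38 (2.05 to 2.71) in Klf9-OE. Over 9 macrophage and blood markers the median log2 fold change was -0.62, with 1 gene past 2-fold upward and 6 downward. Over all genes above 0, 9.43% were at least 2-fold lower. Their sum was 5.78 and 5.76, with Cd68 at 3.69 and 4.11, Csf1r at 0.307 (0.196 to 0.417) and 1.18 (0.834 to 1.53) and C1qb at 0.635 (0.304 to 0.966) in control and 0 in Klf9-OE. The exact 0 values of Eng and C1qb can be failed estimates, and both genes are in the counts and sums above. Receptors of this set are also expressed in gonadal somatic cells. The part of other cell types in the receptor differences was not tested, and in these bulk libraries fewer cells of a type and less RNA per cell cannot be told apart.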

How the data were processed

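RNA from 1 control and 1 Klf9-OE culture was sequenced by the authors as 51-mer single-end reads, mapped to mm10 and RefSeq with TopHat2 and Bowtie, and quantified with Cufflinks (versions not given in the sources used here). The deposited values are FPKM per locus with a 95% interval. Cufflinks also assembled transcripts in each library, and unnamed loci (6482 in control, 15127 in Klf9-OE) entered no comparison of genes.

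FPKM of rows with the same symbol was summed. Ratios had no pseudocount, and the log2 scale had 0.1 added to each FPKM, so differences of low genes come out too small. A 2-fold difference means a ratio of 2 or more, or 0.5 or less. Intervals of ratios combined the upper bounds of both libraries on the log scale (normal quantile 1.96). Implied reads were taken as the square of 2 times the FPKM over the distance to the upper bound. With 1 library per condition no test was made, and read totals, and so depth, are unknown. No protein sequences were used here. Cufflinks starts, counted from 0, were written from 1.

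The genes and lists were chosen with earlier results of these data known. From each of 11 lists of related genes, the text names the 3 (cell type markers, 2) with the largest log2 fold change among genes with an FPKM of at least 1 and the 2 with the highest control FPKM. Gper1, Ddx4, Nr1d1, Tek and the genes of the closing observations were added after their values were seen, and 1 gene that the rule names is not reported here. With 2 libraries no gene was named for likeness to another. Alternatives covered the pseudocount, the minimum FPKM, the fold, the scaling and the interval width, and steps were tested on simulated data. Calculations used Python 3.11.15, numpy 2.4.6, pandas 2.3.3 and matplotlib 3.10.9.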

Additional observations from a re-analysis of the deposited data

Results flagged for a closer look

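Loci without a gene name entered no comparison of genes. Within the annotated spans of the 9 genes, 4 such loci of the Klf9-OE library had a lower bound above 0 and met no unnamed locus of the control library. The highest was at the end of Thra (chromosome 11, 98767485 to 98767609), with an FPKM of 63.9 (22.6 to 105) over 125 bases, inside the stretch that the named Thra row covers in control. Within the span of Nr3c2 there were 2 loci (chromosome 8, 77244088 to 77244448 and 77244548 to 77244785), with FPKM of 2.65 (1.23 to 4.06) and 5.93 (2.10 to 9.75). Within the span of Nr3c1 there was 1 (chromosome 18, 39489128 to 39489464), with an FPKM of 2.66 (1.12 to 4.21). The Klf9-OE table held 15127 unnamed loci in all, against 6482 in control, and the part of this surplus in the 4 loci was not tested.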

How the results depend on the processing

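Of the 2 genes that differed 2-fold, 1 was left with an FPKM of at least 1 in at least 1 library (Thra), and 0 were left with a pseudocount of 1, with a ratio of at least 4, and among the 3 genes annotated in both tables, a choice made after seeing the data. No test was run. By construction, a pseudocount of 1 shrinks the ratios of low genes and the other settings leave out genes or raise the fold. Both scalings and a ratio of at least 1.5 kept the number at 2. Intervals were apart for 4 genes, for 3 to 5 under the settings chosen at the outset, and for 0 of the 3 annotated genes. The median of -0.21 stayed between -0.23 and -0.082.

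For single genes, 40 of 45 alternative values moved by less than the log2 distance from the ratio to the bounds of its interval. The others were Esr1 with a pseudocount of 1 (-0.36 against -0.98) and, with implied reads, a choice made after seeing the data, Esr1 (-1.61), Thra (-0.47 against -1.15), Nr3c1 (0.015 against -0.088) and Tsc22d3 (0.027 against 0.14). The cause was not tested. Depth limits Pgr, Thrb and Esr1 most. No paired analysis was possible because there is 1 library per condition.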

Other observations

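Other glucocorticoid-responsive genes had intervals that lay apart without a 2-fold difference, and they are named after their values were seen. Anxa1, annexin A1, was listed at 16.1 in control and 29.7 in Klf9-OE, Angptl4, an inhibitor of lipoprotein lipase, at 9.28 and 15.7, and Pdk4, an inhibitor of pyruvate dehydrogenase, at 1.75 and 3.03. The clock gene Per1 was listed at 16.5 and 11.8, the transglutaminase Tgm2 at 11.2 and 6.89, and the repressor Bcl6 at 13.0 and 10.03. The first 3 were higher and the last 3 lower in Klf9-OE.

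Of the enzymes that set hormone levels inside a cell, a pair was likewise chosen after its values were seen, both below an FPKM of 1. Dio3, which inactivates thyroid hormone, was listed at 0.982 in control and 0.465 in Klf9-OE, and Hsd11b2, which inactivates corticosterone, at 0.419 and 0.905, with intervals apart for both.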
